A study of Mus musculus with 6 samples.

Results

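The genes described here are 36 genes of DNA replication and deoxynucleotide synthesis, chosen by name out of the 34590 gene symbols counted in each library. They encode the replicative helicase and its loaders (11 genes), the polymerases and primase (6), the sliding clamp and its loader (6), single-strand binding and Okazaki fragment joining proteins (5), enzymes that make deoxynucleotides (5) and regulators of entry into S phase (3). All 36 were found and all 36 passed the filter on low counts, with 69 to 3585 counts per gene and library. RNA came from skin biopsies of C57BL/6 mice, 3 Tnip1+/+ (wild type) and 3 Tnip1-/- (knockout). Both groups had received imiquimod, a Toll-like receptor 7 agonist that inflames mouse skin, on the surface of the skin for 2 days, and untreated skin was not analysed here. Tnip1 encodes a ubiquitin-binding protein that restrains NF-kB signalling. The labels do not say which part of Tnip1 is deleted, nor whether it is missing from every cell. The sample descriptions of the genotypes carry different identifier prefixes, so genotype and any batch that the prefix stands for cannot be told apart.

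To copy its genome, a cell loads the ring of Mcm2 to Mcm7 onto origins in G1 with the help of Cdc6 and Cdt1, and activates the ring as a helicase in S phase with the GINS complex. Primase and DNA polymerase alpha lay down primers, the clamp Pcna is closed around DNA by the Rfc complex and tethers polymerases delta and epsilon, and Fen1 and Lig1 finish the lagging strand. Ribonucleotide reductase and thymidylate synthase supply the deoxynucleotides. Many of these genes are transcribed in dividing cells under E2F factors, and in healthy skin dividing cells are found mainly in the basal layer of the epidermis and in growing hair follicles.

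Because the genes moved largely together, their promoters are shown for the E2F recognition letters. RefSeq windows (GRCm38.p6) from 250 bases before to 50 bases after the transcription start were matched by symbol for 29 of the 36 genes. Searched on both strands were TTTCGCGC, TTTGGCGC, TTTCCCGC and TTTGCCGC, of which the first pair can overlap with each other on opposite strands. One or more of them stood in 9 of the 29 windows (31.0%), against 408 of 10769 windows of tested genes (3.79%) and 626 of all 27025 windows (2.32%). By role, they stood in 6 of 8 windows of the helicase group, 2 of 4 of the polymerases and primase and 1 of 5 of the clamp group, and in 0 of 12 of the remaining windows. Among genes called higher in the knockout 4 of 17 windows held one, and among those not called 5 of 12. The CCAAT box (CCAAT) stood in 16 of 29 windows (55.2%, against 38.1% of tested genes). Printed below are the 170 bases before the start of 5 genes with a match, in capitals, and of Rrm2 and Ccne1, which had the largest fold changes and whose windows hold none of these letters.
Mcm5 (chr8:75109339-75109508, plus strand): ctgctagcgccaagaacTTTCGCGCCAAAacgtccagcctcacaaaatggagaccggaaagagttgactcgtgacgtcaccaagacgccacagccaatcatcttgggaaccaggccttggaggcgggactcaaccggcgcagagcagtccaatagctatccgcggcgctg
Mcm6 (chr1:128359706-128359875, minus strand): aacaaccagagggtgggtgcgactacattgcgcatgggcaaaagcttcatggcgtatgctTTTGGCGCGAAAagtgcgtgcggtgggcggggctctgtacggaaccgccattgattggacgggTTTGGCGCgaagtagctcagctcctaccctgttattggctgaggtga
Mcm7 (chr5:138171884-138172053, minus strand): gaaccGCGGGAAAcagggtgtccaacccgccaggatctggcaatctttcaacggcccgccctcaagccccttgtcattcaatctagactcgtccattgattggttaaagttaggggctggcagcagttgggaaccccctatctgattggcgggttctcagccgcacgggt
Pola1 (chrX:93632156-93632325, minus strand): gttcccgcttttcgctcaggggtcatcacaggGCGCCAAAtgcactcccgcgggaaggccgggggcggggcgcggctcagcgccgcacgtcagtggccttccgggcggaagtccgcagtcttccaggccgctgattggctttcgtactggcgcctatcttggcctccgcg
Rfc3 (chr5:151651209-151651378, minus strand): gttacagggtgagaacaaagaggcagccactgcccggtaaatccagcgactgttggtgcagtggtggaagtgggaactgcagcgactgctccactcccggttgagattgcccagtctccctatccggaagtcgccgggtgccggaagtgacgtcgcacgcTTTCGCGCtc
Rrm2 (chr12:24708084-24708253, plus strand): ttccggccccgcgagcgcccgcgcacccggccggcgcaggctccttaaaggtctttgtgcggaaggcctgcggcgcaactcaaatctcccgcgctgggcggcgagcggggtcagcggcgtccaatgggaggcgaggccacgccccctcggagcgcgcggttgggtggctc
Ccne1 (chr7:38107491-38107660, minus strand): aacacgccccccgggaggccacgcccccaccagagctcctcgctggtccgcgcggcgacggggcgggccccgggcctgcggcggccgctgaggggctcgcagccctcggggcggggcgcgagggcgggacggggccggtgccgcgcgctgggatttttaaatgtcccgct
Mcm5 and Mcm6 each hold a pair of overlapping matches on opposite strands, printed as 1 run of capitals, and Mcm6 holds another match closer to the start. A match is a match of letters only, and nothing about binding was measured in these libraries.

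Gene counts per library totalled 24701074 to 31005554 for wild type and 19529970 to 25864730 for knockout skin. Levels are CPM, counts relative to library size, after scaling with TMM factors of 0.898 to 1.095. At these depths 3 counts, the lowest level taken as detectable, correspond to 0.0968 to 0.154 CPM. Tnip1 stood at 26.4 ± 1.55 CPM (SD, n = 3) in wild type and 1.81 ± 0.230 CPM (n = 3) in knockout libraries, with 703 to 938 against 35 to 47 counts, a log2 fold change of -3.87 with an adjusted p of 5.87e-05 by edgeR. Values after ± are SDs over the 3 libraries of a group. All fold changes are knockout over wild type on the log2 scale with their standard error (SE), and adjusted p-values come from the quasi-likelihood test of edgeR, adjusted by Benjamini-Hochberg over the 16691 genes tested. Genes with an adjusted p below 0.05 count as called. The genotypes differed widely: 7525 genes were called (45.1%), 3730 of them higher (22.3%) and 3795 lower (22.7%).

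Replication genes stood higher in knockout skin in most roles. Of the 36 genes, 20 rose and 0 fell, where 22.3% of all tested genes rose, and 16 were not called. By unadjusted p under 0.05, 25 were higher and 0 lower (26.6% and 27.7% of all tested genes). DESeq2 called 25 higher (24.8% of all tested genes) and 0 lower, and limma voom called 21 higher (22.6%) and 0 lower. The fold change was above 0 for 35 genes, all but E2f1, while 48.1% of all tested genes were above 0. Its median was 0.85 over the 36 genes and -0.04 over all genes tested, and 87.0% of tested genes stood at or below the median of the 36. Calls with a fold change of at least 1 numbered 10 of 36, where the share of all tested genes was 9.24%. The 36 genes summed to 686.8, 592.1 and 1082 CPM in the wild type libraries (replicates 1, 2 and 3, an order kept throughout). In the knockout libraries the sums were 1171, 1401 and 1618 CPM. In bulk skin, more dividing cells and more RNA per dividing cell cannot be told apart.

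**Figure D1:**
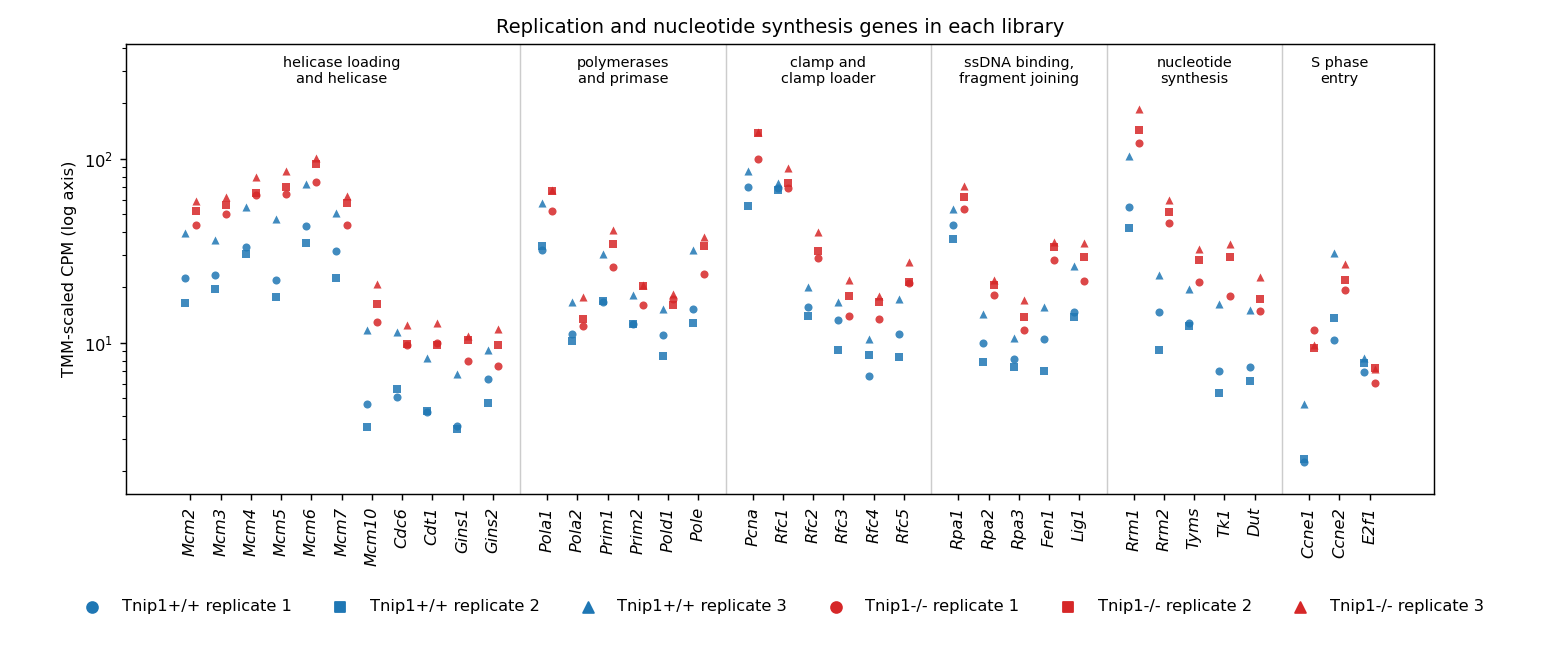
Level of each gene in each library, in TMM-scaled CPM on a log axis, with genes grouped by role. Each point is 1 library (blue, wild type; red, knockout; shape, replicate number). The wild type triangle, replicate 3, is the highest blue point for all 36 genes.

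Wild type replicate 3 stood apart from the other two wild type libraries. It was the highest wild type library for 36 of 36 genes, while it was the highest for 27.9% of all tested genes. Wild type replicates 1 and 2 were both below every knockout library for 34 genes, against 32.2% of all tested genes, whereas replicate 3 reached or passed the lowest knockout library for 14. The median of the 36 genes, as log2 of the level over the wild type mean, was -0.22, -0.42 and 0.49 in wild type replicates 1 to 3 and 0.58, 0.80 and 1.01 in knockout replicates 1 to 3. Knockout replicate 3 was the highest knockout library for 34 genes (34.5% of all tested genes) and knockout replicate 1 the lowest for 33 (36.9%). The groups did not overlap, with the knockout higher, for 22 of the 36 genes, against 29.2% of all tested genes.

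**Figure D2:**
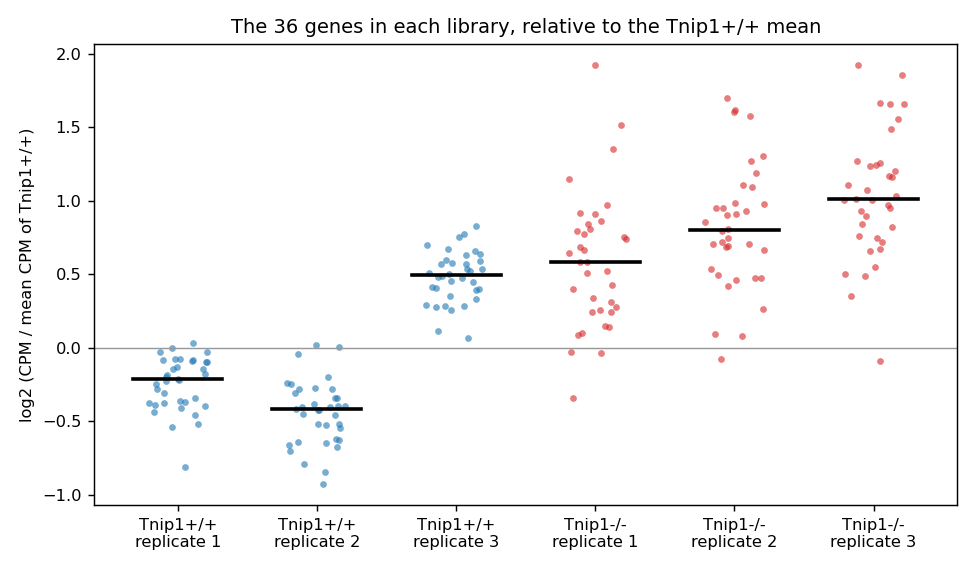
Level of each of the 36 genes in each library as log2 of its CPM over its mean in the wild type libraries. Points are genes and black bars are medians, which run from -0.42 in wild type replicate 2 to 1.01 in knockout replicate 3, with wild type replicate 3 at 0.49.

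The number of calls depended on single libraries. Without wild type replicate 3, 31 of 36 genes were called higher, against 18.9% of all genes tested in that fit, and the median fold change of the 36 was 1.13. Leaving out wild type replicate 1 left 8 calls of 36, a share close to the 20.1% of all genes. Leaving out wild type replicate 2 left 9 calls (19.5% of all genes), and leaving out knockout replicate 1, 2 or 3 left 14, 9 or 8 calls (16.8%, 16.3% and 16.8% of all genes). Called in every one of these 6 fits were 8 genes, Mcm3, Pcna, Rfc2, Rfc4, Rpa2, Fen1, Rrm2 and Ccne1. With library totals in place of TMM factors, which shifted the median fold change of all genes by -0.155, 9 genes were called, these 8 and Mcm5, against 14.9% of all tested genes. The share of calls over all genes that were higher was then 34.1% instead of 49.6%, and the median of the 36 genes stood 0.88 above that of all genes with either scaling. No gene of the 36 was called lower in any of these fits.

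Marker genes of several cell types moved with genotype or with wild type replicate 3, and their part in the results below was not tested. Basal keratinocyte markers (7 genes) summed to 3092 to 6714 CPM in wild type and 14240 to 18992 CPM in knockout libraries: Krt5, Krt14 and Itga6 rose, Krt15 fell, and Itgb4, Col17a1 and Trp63 were not called. Skeletal muscle markers summed to 8695 to 15056 CPM in wild type and 2872 to 4212 CPM in knockout libraries, with 6 of 6 lower, and adipocyte markers to 1365 to 2614 and 71.3 to 772 CPM, with 2 of 5 lower. When a score of these muscle and fat markers entered the model, 0 of the 36 genes were called, and of all tested genes 277 were higher (1.66%) and 263 lower. That score separated the genotypes, so its share and that of the genotype cannot be told apart. Hair matrix and cortex markers (8 genes in the files) summed to 17.2 CPM in wild type replicate 3, to 2.04 and 2.52 CPM in the other wild type libraries and to 1.72 to 1.74 CPM in the knockout libraries, where Krt33a was at 0. Neutrophil markers summed to 10.3 to 16.3 CPM in wild type and 67.4 to 104 CPM in knockout libraries. All 5 tested neutrophil genes rose, among them Camp (4.44), Ngp (4.70) and Ltf (3.16). Ly6g was at 0 in every wild type library and in knockout replicate 2. Mpo and Elane, too low to be tested, stayed under 0.5 CPM. Erythroid precursor markers, of a dividing lineage, summed to 92.7 to 149 and 168 to 341 CPM, mostly from Hba-a1, and their factor Klf1 stayed under 0.2 CPM. Melanocyte markers summed to 105 CPM in wild type replicate 3 and to 5.34 to 23.5 CPM in the other libraries, with 2 of 4 lower. Of the remaining marker lists, 3 of 6 suprabasal keratinocyte genes rose and 1 fell, 3 of 6 sebocyte genes fell, 3 of 6 macrophage genes rose, 1 of 7 T cell genes rose and 2 fell, and 1 of 2 B cell and plasma cell genes rose. Of fibroblast genes 2 of 6 fell, and of endothelial genes 1 of 5 rose and 3 fell. Of all tested genes 22.3% rose and 22.7% fell. With so few genes per list, counts such as those of the T cell and fibroblast genes are near these shares.

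Helicase and loading genes were the largest group, and 8 of 11 rose (22.3% of all tested genes). Mcm2 to Mcm7 encode the ring-shaped helicase. Mcm3 stood at 23.2, 19.6 and 36.1 CPM in wild type and at 49.8, 56.2 and 62.2 CPM in knockout skin. The groups did not overlap, and Mcm3 rose by 1.09 (SE 0.23, adjusted p = 0.00976). Mcm5 stood at 22.0, 17.8 and 47.1 CPM in wild type against 64.2, 70.1 and 85.2 CPM in knockout libraries, with wild type replicate 3 more than the sum of the other two. It rose by 1.34 (SE 0.36, adjusted p = 0.0212), the largest change of the ring. Mcm2, at 22.5, 16.5 and 39.4 against 43.6, 51.8 and 58.8 CPM, rose by 0.98 (SE 0.31, adjusted p = 0.0381). Mcm4 rose from 39.4 ± 13.4 to 69.3 ± 9.04 CPM, a change of 0.81 (SE 0.24). Mcm6 rose by 0.84 (SE 0.28), from 42.8, 34.7 and 72.7 CPM to 74.9, 94.1 and 101 CPM, and its wild type replicate 3 lay just below the lowest knockout library. Mcm7 was not called: its levels were 31.6, 22.6 and 50.7 CPM in wild type against 43.3, 57.2 and 62.7 CPM in knockout libraries, with wild type replicate 3 above knockout replicate 1, for a change of 0.64 (SE 0.30, adjusted p = 0.117). Without wild type replicate 3 its change was 1.02 and was called. Of the 50-base stretches of Mcm7, 26.0% also occur in other genes, most often in Gm5487. Other genes, among them Cops6 and Ap4m1 on the opposite strand, overlap 12.6% of its exon bases, so its count is uncertain.

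Among the genes that load and start the helicase, Mcm10, which helps to activate it, had the widest wild type spread. Its levels were 4.62, 3.47 and 11.7 CPM in wild type against 13.0, 16.3 and 20.9 CPM in knockout libraries, and it rose by 1.34 (SE 0.45, adjusted p = 0.0464), or by 2.05 without wild type replicate 3. Cdt1, the loader that is active in G1, stood at 4.20, 4.25 and 8.29 CPM against 10.0, 9.70 and 12.8 CPM and rose by 0.96 (SE 0.30, adjusted p = 0.0360). Gins1, a GINS subunit, rose from 4.55 ± 1.90 to 9.74 ± 1.55 CPM, a change of 1.10 (SE 0.30, adjusted p = 0.0236). Its partner Gins2 stood at 6.72 ± 2.25 and 9.68 ± 2.20 CPM and was not called (0.53, SE 0.28, adjusted p = 0.167). Most of the exon bases of Gins2 (67.3%) are overlapped by Gse1 on the opposite strand, and the strand setting of the counting was not given in the sources used here. Cdc6, the loader ATPase, was not called either, at 5.07, 5.57 and 11.4 CPM against 9.70, 9.83 and 12.5 CPM (0.54, SE 0.33, adjusted p = 0.210). Its wild type replicate 3 lay above both knockout replicates 1 and 2, and without that library its change was 1.01 and was called. The helicase group of 11 had 10 calls without wild type replicate 3, where 18.9% of all genes were called higher. It had 1 and 2 calls without wild type replicates 1 and 2 (20.1% and 19.5% of all genes). Without knockout replicates 1, 2 and 3 it had 3, 2 and 1 calls (16.8%, 16.3% and 16.8%). Counts of 1 and 2 of 11 are shares near or below those of all genes.

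No polymerase or primase gene passed the edgeR test on genotype alone with all libraries. All 6 fold changes lay above 0, with a median of 0.59, and that test called 0 of 6 (22.3% of all tested genes rose). At an unadjusted p under 0.05 there were 3, and DESeq2 called 3 and limma voom 0. With the replicate number as a block edgeR called 3, Pola1, Prim1 and Pold1 (19.9% of all tested genes were higher). Pola1, the catalytic subunit of polymerase alpha, stood at 31.9, 33.7 and 57.1 CPM in wild type against 51.7, 66.8 and 67.4 CPM in knockout libraries (0.60, SE 0.24, adjusted p = 0.0821). Wild type replicate 3 lay inside the knockout range, and the same held for Prim1, the catalytic primase subunit, at 16.7, 16.8 and 30.2 against 25.8, 34.4 and 41.1 CPM (0.67, SE 0.28, adjusted p = 0.0888). Pold1, the catalytic subunit of polymerase delta, was the polymerase gene whose groups did not overlap, at 11.0, 8.43 and 15.3 against 17.4, 16.1 and 18.3 CPM (0.57, SE 0.22, adjusted p = 0.0700). Pole, the catalytic subunit of polymerase epsilon, stood at 15.3, 12.8 and 31.9 against 23.7, 33.5 and 37.3 CPM (0.66, SE 0.36, adjusted p = 0.169, and 1.17 without wild type replicate 3). The accessory subunits Prim2 (0.39, SE 0.19, adjusted p = 0.136) and Pola2 (0.20, SE 0.23, adjusted p = 0.507) had the smallest changes of the group. Without wild type replicate 3, all but Pola2 were called, and with any other library left out 0 were.

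Of the clamp and clamp loader genes, 4 of 6 rose (22.3% of all tested genes). Pcna, the clamp itself, stood at 69.9, 55.3 and 85.2 CPM in wild type against 99.8, 138 and 140 CPM in knockout libraries. It rose by 0.85 (SE 0.20, adjusted p = 0.0139), and the groups did not overlap. Of the 50-base stretches of Pcna, 31.8% also occur in other genes, most often in the pseudogene Pcna-ps2, so its count is uncertain. Among the loader subunits, Rfc2 rose by 1.02 (SE 0.19, adjusted p = 0.00578), from 16.5 ± 3.13 to 33.4 ± 5.86 CPM. Rfc4 rose from 8.55 ± 1.94 to 16.0 ± 2.29 CPM (0.91, SE 0.21), and Rfc5 from 12.3 ± 4.48 to 23.3 ± 3.61 CPM (0.93, SE 0.27, adjusted p = 0.0277). Rfc3 was not called, at 13.3, 9.11 and 16.7 against 14, 18.0 and 21.9 CPM (0.46, SE 0.26, adjusted p = 0.180). Rfc1, the large subunit, varied least in wild type skin and was nearly level, at 68.9, 68.0 and 73.7 against 68.9, 74.0 and 89.5 CPM. Its fold change was 0.14 (SE 0.13, adjusted p = 0.378), and -0.0093 with library totals in place of TMM factors. Between 10.7% and 15.1% of the exon bases of Rfc2, Rfc4 and Rfc5 are overlapped by opposite-strand genes. This group had 3 calls without any one of the libraries other than wild type replicate 3, and 4 without that library. The share of all genes called higher in these fits was 16.3% to 20.1%.

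Of the genes for single-strand binding and for joining Okazaki fragments, 3 of 5 rose (22.3% of all tested genes). Fen1, the flap endonuclease that trims Okazaki fragments, stood at 10.5, 7.03 and 15.6 CPM in wild type against 28.2, 33.0 and 35.2 CPM in knockout libraries. Every knockout library held more than any wild type library, and Fen1 rose by 1.54 (SE 0.28, adjusted p = 0.00547). The exons of Fen1 are overlapped over 84.2% of their bases by the opposite-strand genes Tmem258 and Gm10143, and without a stated strand setting their reads cannot be told apart. Lig1, the ligase that acts next, was not called, at 14.8, 13.8 and 26.2 against 21.7, 29.4 and 34.8 CPM (0.65, SE 0.29, adjusted p = 0.105), whereas without wild type replicate 3 its change was 1.01 and was called. Of the subunits of replication protein A, which coats single-stranded DNA, Rpa2 rose by 0.92 (SE 0.23, adjusted p = 0.0161), from 10.0, 7.85 and 14.3 to 18.1, 20.7 and 21.9 CPM. Rpa3 rose from 8.67 ± 1.67 to 14.1 ± 2.67 CPM (0.70, SE 0.20, adjusted p = 0.0282). Rpa1 just missed the threshold, at 43.6, 36.7 and 53.0 against 53.2, 61.8 and 70.9 CPM (0.48, SE 0.17, adjusted p = 0.0568). Its wild type replicate 3 and knockout replicate 1 were nearly equal. The group had 5 calls without wild type replicate 3, 3 without knockout replicate 1 and 2 without any one of the others. In these fits 16.3% to 20.1% of all genes were called higher.

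Genes of deoxynucleotide synthesis had the largest median change of the groups, 1.18, with 4 of 5 called higher (22.3% of all tested genes). Rrm2, the subunit of ribonucleotide reductase that is made in S phase, stood at 14.7, 9.07 and 23.4 CPM in wild type against 44.9, 51.2 and 59.6 CPM in knockout libraries. All 3 knockout libraries lay well above wild type replicate 3, and Rrm2 rose by 1.72 (SE 0.33, adjusted p = 0.00625). Rrm1, the large subunit, stood at 54.9, 41.9 and 104 against 121, 144 and 187 CPM and rose by 1.18 (SE 0.34, adjusted p = 0.0284). Tk1, the thymidine kinase of dividing cells, stood at 7.02, 5.30 and 16.3 against 17.9, 29.2 and 34.4 CPM, with wild type replicate 3 close to knockout replicate 1. It rose by 1.51 (SE 0.44, adjusted p = 0.0292), or by 2.15 without wild type replicate 3. Tyms, thymidylate synthase, rose from 14.9 ± 4.10 to 27.2 ± 5.42 CPM (0.87, SE 0.23, adjusted p = 0.0217). Dut, which breaks down dUTP, was not called, at 7.41, 6.22 and 15.1 against 15.0, 17.4 and 22.7 CPM (0.94, SE 0.35, adjusted p = 0.0631), whereas without wild type replicate 3 its change was 1.44 and was called. The group had 5 calls without wild type replicate 3, 4 without knockout replicate 1 and 1, Rrm2, without any one of the others. A count of 1 of 5 is a share near the 16.3% to 20.1% of all genes called higher in those fits.

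Of the S phase entry genes, 1 of 3 rose (22.3% of all tested genes). Ccne1, cyclin E1, stood at 2.25, 2.35 and 4.66 CPM in wild type against 11.7, 9.40 and 9.77 CPM in knockout libraries. It rose by 1.74 (SE 0.31, adjusted p = 0.00517), the largest fold change of the 36 genes, with no overlap of the groups. Ccne2, cyclin E2, was not called, at 10.3, 13.6 and 30.7 against 19.3, 21.9 and 26.6 CPM (0.31, SE 0.39, adjusted p = 0.532). Wild type replicate 3 held more Ccne2 than any knockout library, and without it the change was 0.93 and was called. Ints8 on the opposite strand overlaps 17.4% of the exon bases of Ccne2, and the strand setting of the counting is not known. E2f1, the transcription factor, was nearly level in all libraries, at 6.90, 7.75 and 8.26 against 6.03, 7.24 and 7.16 CPM, for a fold change of -0.16 (SE 0.16, adjusted p = 0.425).

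**Figure D3:**
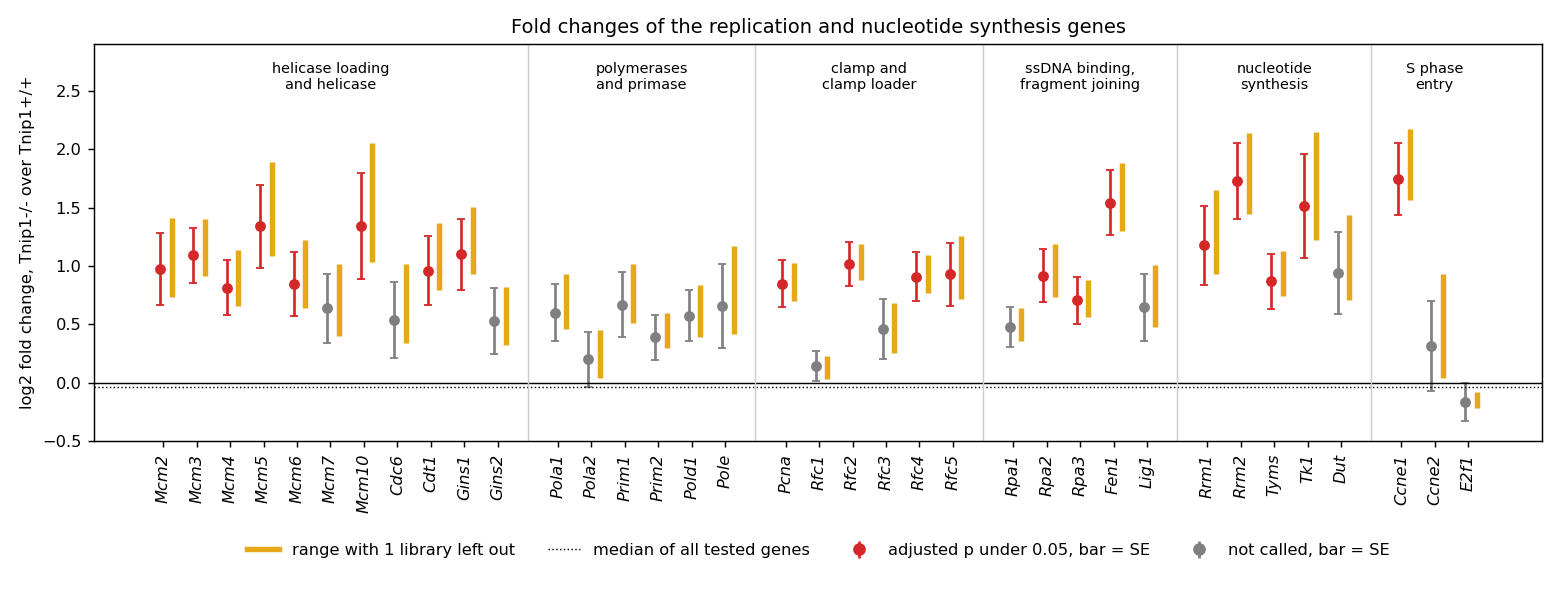
Log2 fold change of each gene, knockout over wild type, with its standard error (red, called; grey, not called) and the range over 6 fits that each leave out 1 library (yellow). The dotted line is the median of all tested genes, -0.04, and E2f1 is the only gene whose value lies below 0.

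Levels per length allow genes to be ordered by abundance, and the order depends on the length that is used. Per kb of all annotated exons merged, Pcna was the most abundant of the 36 genes, at 29.2 ± 6.24 CPM per kb in wild type and 52.6 ± 9.5 CPM per kb in knockout skin (n = 3 each). Per kb of the longest annotated transcript, a length added after the values were seen, it was again first in both genotypes, at 46.2 ± 9.87 and 83.1 ± 15.0 CPM per kb. Rfc1 followed in wild type skin with either length. The 6 genes of the helicase ring, whose products join in equal numbers, spanned 2.92-fold in wild type and 2.61-fold in knockout skin by merged exons. By longest transcript they spanned 1.58-fold and 1.47-fold. Mcm2, whose merged exons are 6956 bases and whose longest transcript is 3494 bases, was the lowest of the ring with either length. By merged exons Rrm2 went from rank 11 of 36 in wild type to rank 4 in knockout skin, and by longest transcript from 13 to 3. Ccne1 went from 35 to 27 and from 34 to 28, and E2f1 from 27 to 34 and from 31 to 35. The ratio of Rrm2 to Rrm1 per kb of merged exons was 1.06, 0.861 and 0.897 in wild type against 1.47, 1.41 and 1.26 in knockout libraries. Per kb of longest transcript it was 0.667, 0.541 and 0.564 against 0.922, 0.888 and 0.795. That of Ccne1 to Ccne2 was 0.285, 0.226 and 0.200 against 0.797, 0.564 and 0.481 by merged exons. The length scales a ratio alike in all libraries, so with either length neither ratio overlapped between the genotypes, and wild type replicate 1 was the highest wild type library in both.

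Genes around the fork were read from companion lists, to be set beside the 22.3% of all tested genes that rose and the 22.7% that fell. Of 21 tested origin recognition, firing and fork genes, 8 rose and 0 fell, with a median change of 0.63. Mcmbp, a binding partner of the helicase ring, rose from 54.0 ± 6.24 to 90 ± 4.4 CPM, by 0.74 (SE 0.12). Gmnn, geminin, the inhibitor of Cdt1, rose from 5.34 ± 2.56 to 18.0 ± 2.04 CPM, by 1.76 (SE 0.32). Dbf4, the activating subunit of the origin-firing kinase, rose from 15.2 ± 5.24 to 37.6 ± 6.31 CPM, by 1.30 (SE 0.25). Of 17 other polymerase subunits and strand processing genes 7 rose and 0 fell. The small polymerase epsilon subunit Pole4, at 15.4, 14.5 and 17.6 against 36.1, 29.9 and 33.5 CPM, rose by 1.07 (SE 0.13, adjusted p = 0.00157). Rnaseh2c and Rnaseh2a, subunits of the RNase that removes ribonucleotides from DNA, rose by 1.38 (SE 0.22) and 1.02 (SE 0.19). Of 11 genes of replication-coupled chromatin assembly 4 rose and 0 fell, among them the histone chaperones Rbbp4 (0.59, SE 0.14) and Rbbp7 (0.49, SE 0.10) and the histone acetyltransferase Hat1 (0.81, SE 0.20, not called without knockout replicate 3, at 0.72). Without wild type replicate 3 these lists had 16, 12 and 10 genes called higher, against 18.9% of all genes. Leaving out 1 of the other libraries gave 3 to 7 of 21, 4 to 6 of 17 and 2 to 4 of 11 (16.3% to 20.1% of all genes). The lowest counts of the first and last list are shares near those of all genes. With library totals in place of TMM factors the lists had 4, 4 and 1 (14.9% of all tested genes), with 1 origin or fork gene lower. Rbbp4 (0.43), Rbbp7 (0.33) and Hat1 (0.65) were then not called.

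Genes of nucleotide supply outside the 36 were called higher more often than lower, where 22.3% of all tested genes rose and 22.7% fell. Of 15 other deoxynucleotide and thymidylate enzymes 7 rose and 1 fell. The gene that fell was Rrm2b, the subunit that replaces Rrm2 in ribonucleotide reductase outside S phase and is induced by p53. It stood at 22.8, 33.3 and 26.5 CPM in wild type against 15.3, 14.2 and 15.6 CPM in knockout libraries and fell by 0.87 (SE 0.16, adjusted p = 0.00575). Per kb of merged exons the ratio of Rrm2 to Rrm2b was 2.12, 0.897 and 2.91 in wild type against 9.69, 11.9 and 12.6 in knockout libraries, and per kb of longest transcript it was 0.566 to 1.83 against 6.12 to 7.94. Nme1, a nucleoside diphosphate kinase, rose by 1.74 (SE 0.14, adjusted p = 4.78e-04), from 11.1 ± 1.56 to 37.0 ± 2.87 CPM. The mitochondrial one-carbon enzymes Shmt2 (1.40, SE 0.21) and Mthfd2 (1.03, SE 0.16) rose as well. Of 18 genes of purine and pyrimidine synthesis 9 rose and 1 fell. Impdh2, which commits purine precursors to guanine nucleotides, rose from 40.5 ± 6.79 to 98.6 ± 8.40 CPM (1.28, SE 0.15), Gart from 35.6 ± 5.22 to 73.6 ± 4.93 CPM (1.05, SE 0.14) and Impdh1 from 9.01 ± 1.39 to 18.4 ± 1.12 CPM (1.03, SE 0.15). Adssl1, the adenylosuccinate synthase of muscle, fell by 0.91 (SE 0.22, adjusted p = 0.0155), and by 0.77 and 0.80 without knockout replicates 2 and 3, where it was no longer called. The skeletal muscle markers given above were lower in the same libraries. With library totals 6 of the 18 were higher, against 14.9% of all tested genes, and 3 lower. Wild type replicate 3 was the highest wild type library for 10 of these 18 genes, for 9 of the 15 and for all 36 replication genes.

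**Figure D4:**
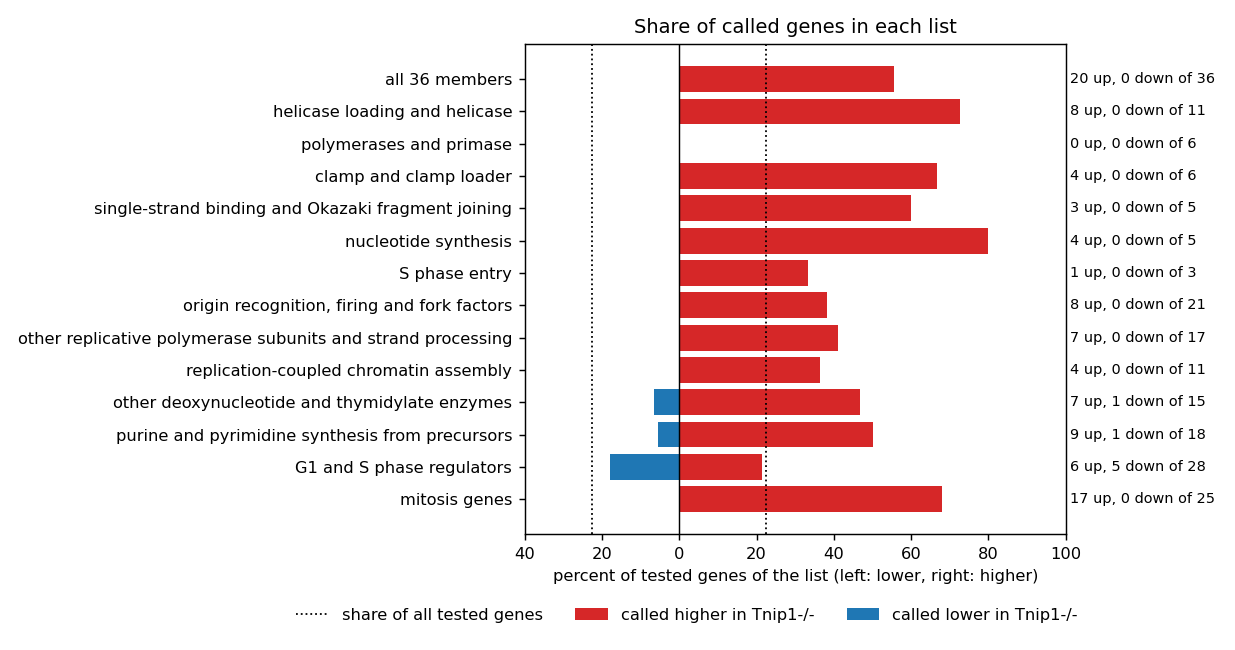
Percent of the tested genes of each list that were called higher (red, right) or lower (blue, left) in the knockout, with the counts at the right edge. Dotted lines mark the shares of all tested genes, 22.3% higher and 22.7% lower. The polymerase and primase row is empty, and the G1 and S phase regulators have calls on both sides.

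Of 28 regulators of G1 and S phase 6 rose (21.4%) and 5 fell, shares near those of all tested genes, with a median change of 0.28. Tfdp1, the dimer partner of E2F factors, rose from 48.6 ± 11.8 to 99.7 ± 2.98 CPM (1.04, SE 0.17), and the G1 kinase Cdk6 from 16.0 ± 3.02 to 33.2 ± 5.38 CPM (1.05, SE 0.19). Ccnd2, cyclin D2, fell from 176 ± 10.3 to 71.6 ± 12 CPM, by 1.29 (SE 0.14, adjusted p = 0.00117). The other genes that fell, named after their values were seen, were Tfdp2 (-0.59), the pocket protein gene Rbl2 (-0.67) and the cyclin-dependent kinase inhibitors Cdkn1b (-0.90) and Cdkn1c (-1.11). E2f8, a repressor of the E2F family and also named after its values were seen, rose by 1.39 (SE 0.29), from 4.51 ± 1.78 to 11.8 ± 1.92 CPM. With library totals in place of TMM factors 3 of these regulators were higher (14.9% of all tested genes) and 8 lower. With 1 library left out 3 to 9 were higher (16.3% to 20.1% of all genes), the most without wild type replicate 3.

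Mitosis genes, which act after replication is complete, had a larger median change, 1.45. Of 25, 17 rose and 0 fell, where 22.3% of all tested genes rose. Cdc20, an activator of the anaphase-promoting complex, stood at 6.81, 3.74 and 14.5 CPM in wild type against 55.8, 47.9 and 68.5 CPM in knockout libraries and rose by 2.78 (SE 0.46), or by 3.45 without wild type replicate 3. Ccnb1, cyclin B1, stood at 11.4, 7.82 and 28.4 against 61.4, 77.4 and 104 CPM and rose by 2.35 (SE 0.48), or by 3.08 without wild type replicate 3. Cenpa, the histone variant of centromeres, rose by 2.23 (SE 0.36). Wild type replicate 3 was the highest wild type library and knockout replicate 3 the highest knockout library for all 25 genes. Without wild type replicate 3 all 25 were called (18.9% of all genes). With 1 of the other libraries left out 5 to 13 were (16.3% to 20.1% of all genes), so the lowest count is near that share. With library totals in place of TMM factors 11 were (14.9% of all tested genes). In their promoters the E2F letters stood in 1 of 22 windows, CCAAT in 17 of 22 and the CHR element (TTTGAA, either strand) in 15 of 22, whereas 2 of 29 windows of the replication genes and 12.3% of those of tested genes held the CHR letters.

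**Figure D5:**
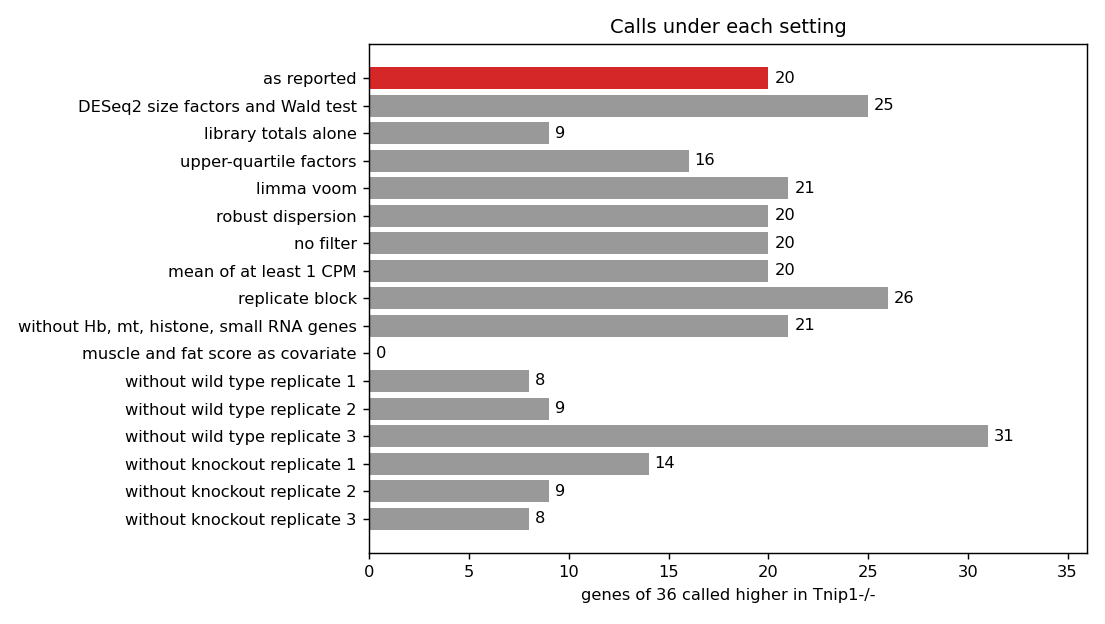
Number of the 36 genes called higher in the knockout under each setting (grey) and as reported (red, 20). Counts run from 0 with the muscle and fat score in the model to 31 without wild type replicate 3.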

How the data were processed

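Total RNA of skin biopsies was depleted of ribosomal RNA and read in pairs from stranded libraries, per the labels' protocols. The values the authors deposited were raw counts per gene symbol, 1 file per library. The submitters' processing notes name CASAVA 1.7, STAR, BWA, HTSeq, limma, R 3.2.3 and build mm9, with their order, the annotation and the strand setting not given in the sources used here. The 5 summary lines of the counter (26.7% to 30.3% of a file) were left out. Replicates were separate mice and differed beyond counting noise, with a chi-square over its degrees of freedom of 33.1 to 134.

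All else was computed from these counts in R 4.3.3 with edgeR 4.0.16 (TMM, filterByExpr, quasi-likelihood test without robust dispersion) on genotype alone over 16691 genes, with Benjamini-Hochberg adjustment. In a simulated comparison of knockout with wild type, 58% of genes given a log2 change of 1 were recovered. At a log2 change of 2, 99% were. A gene that was not called may therefore still differ by a log2 change of 1 or less. Alternatives used DESeq2 1.42.0, limma 3.58.1 and others given in the closing section. Merged exon lengths, longest transcripts and overlaps came from GENCODE M21 (GRCm38), a later build than that of the counts, and promoters from RefSeq. The limit of 3 counts covers counting error only, whereas the SDs and SEs include the variation between mice.

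The 36 genes and the lists were chosen with earlier results of these data known. Named were Tnip1, every one of the 36, and of each companion list the 3 called genes with the smallest p, plus 1 in the other direction where both directions were called. Genes outside this rule are marked in the text, as are the cell type markers.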

Additional observations from a re-analysis of the deposited data

How the results depend on the processing

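Of the 36 genes, 20 were called higher with edgeR and TMM factors. The count was 25 with DESeq2, 16 with upper-quartile factors and 21 with limma voom (24.8%, 19.0% and 22.6% of all tested genes). It was 20 with robust dispersion, without a filter or with a mean of at least 1 CPM (22.4%, 14.3% and 22.9%). Without haemoglobin, mitochondrial, histone and small RNA genes it was 21 (22.8%). It was 9 with library totals alone (14.9%) and 0 with a score of muscle and fat markers in the model. With that score 277 of all genes were higher and 263 lower, and the score separated the genotypes. Leaving out 1 library gave 8 to 31 calls (16.3% to 20.1% of all genes). In all of these fits 0 of the 36 were lower, and their median fold change stayed between 0.57 and 1.13. Rfc1 changed sign with library totals alone, at -0.0093, and no other of the 36 did so under any setting. Over all tested genes no pairing of mice by replicate number was seen, though 3 libraries per group cannot decide it. Deviations of same-numbered libraries correlated at 0.03, -0.24 and 0.21, and replicates 1 and 2 each correlated best with the other number. With the replicate number as a block 26 genes were called higher (19.9% of all tested genes). Precision near the threshold is limited by 3 mice per group and the spread among the wild type libraries. Depth was not short for these genes, whose lowest count in a library was 69.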
